A study of Rattus norvegicus with 3 samples.

Results

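Of the 32731 HILS1 peaks in the deposited list, 443 had as their nearest gene a subunit or receptor of the glutamate, GABA-A, acetylcholine or serotonin families. They were chosen by gene name alone, as every peak whose assigned gene begins with Gria, Grik, Grid, Grin, Grm, Gabra, Gabrb, Gabrg, Chrm, Chrna or Htr followed by a digit, with Grm8 left out. The 443 peaks lay nearest 38 genes, and all 38 names were receptor genes. HILS1 is a linker histone variant made in spermatids, and its position on the genome was mapped by chromatin immunoprecipitation and sequencing (ChIP-seq). Nuclei came from testes of rats 50 to 60 days old, the cells are labelled as elongating and condensing spermatids, and there were 2 anti-HILS1 replicates and 1 input library. The labels give neither strain nor genotype and do not say whether the replicates came from separate animals. The deposited list holds the peaks shared by the replicates, with no value for either replicate alone, so the replicates could not be compared and no test was made. Read totals were not given in the sources used here, so depth is unknown, and a list of peaks gives no marker expression against which the labelled cell type could be checked.

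Neurotransmitter receptors carry signals between neurons. Ionotropic receptors are ion channels built from several subunits, each encoded by its own gene, whereas metabotropic receptors act through G proteins. Many of these genes are long and are expressed chiefly in the nervous system. LINE-1 elements are retrotransposons that make up a large share of mammalian genomes, and in the rat the repeat annotation names their subclasses L1_Rn, L1_Rat1 and RNHAL1, among others.

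A peak was given the gene with the nearest transcription start site (TSS), so a peak inside a receptor gene could take another name. In 22 cases the other name was a microRNA gene that lies inside the receptor gene and whose start is closer to the peak. The mature microRNAs concerned in genes of the families chosen here are printed for that reason, from RefSeq (assembly GRCr8), 5′ to 3′, with the seed, bases 2 to 8, in capitals. The list counted 10 peaks in introns of Gabra3 under Mir105, 6 in Htr2c under Mir1298 and 1 in Htr2c under Mir1912. It also counted 4 peaks in Grid1 under Mir346 and 1 in Gria2 under Mir2985. No seed was shared between these sequences.
rno-miR-105 (in Gabra3): cAAGUGCUcagaugucuguggu
rno-miR-1298 (in Htr2c): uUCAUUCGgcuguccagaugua
rno-miR-1912-5p (in Htr2c): uGCUCAUUgcaugggcuaugu
rno-miR-1912-3p (in Htr2c): cACAGAACaugcagugaga
rno-miR-346 (in Grid1): uGUCUGCCugagugccugccucu
rno-miR-2985 (in Gria2): uGUUAUAGuaucccaccuaccc

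HILS1 peaks near receptor genes were spread unevenly over the families. Glutamate receptor genes held 204 of the 443 peaks (46.0%), GABA-A receptor genes 110, serotonin receptor genes 102, muscarinic acetylcholine receptor genes 14 and nicotinic alpha subunit genes 13. The families differ in size, and genes without peaks are included in the following numbers. There were 18 ionotropic and delta and 7 metabotropic glutamate receptor genes, 12 GABA-A, 14 serotonin, 5 muscarinic and 9 nicotinic alpha genes. The 5 genes with the most peaks, among them Gria3, Grik2, Gabrg3 and Htr2c, held 173 peaks (39.1%), and the first 10 held 264 (59.6%). At the other end, 9 genes had 1 to 3 peaks. The median was 8 peaks per gene against 3 over the 4777 genes named in the list, and 16 of the 38 genes (42.1%) had 10 peaks or more against 818 (17.1%) in the list. Gria3, the highest, ranked 96th among all named genes. Several peaks were pieces of one called region: the 443 peaks came from 326 regions called by the authors, of which 73 had more than 1 piece, and these pieces share a fold enrichment. Counting peaks less than 6000 bp apart once left 235. Together the peaks covered 423 kb.

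**Figure D1:**
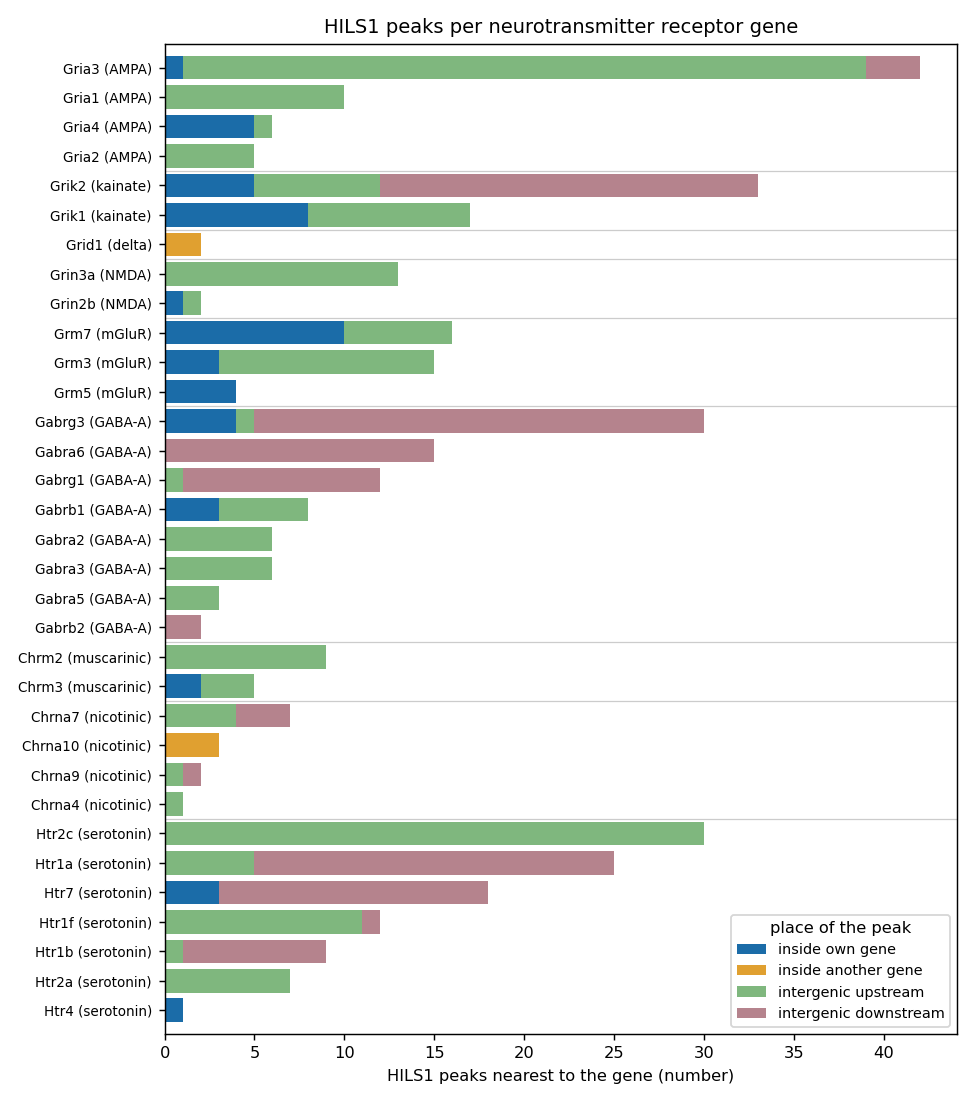
Number of HILS1 peaks (x axis) for 33 of the 38 receptor genes (y axis, grouped by class), split by position relative to the gene whose TSS is nearest. The bars run from 42 peaks at Gria3 to 1 peak at Chrna4 and Htr4, and the 30 peaks of Htr2c were all intergenic upstream.

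Nearly all of the peaks lay in LINE-1 elements. LINE-1 was the annotated repeat for 414 of the 443 peaks (93.5%, 95% Wilson interval 90.8 to 95.4) against 77.6% (77.1 to 78.0) of all peaks. L1_Rn, the most frequent subclass, held 246 peaks (55.5%, 50.9 to 60.1) against 37.2% of the list. L1_Rat1 held 112 peaks (25.3%, 21.5 to 29.5) against 23.5%, and RNHAL1 43 (9.71%) against 7.93%. The other LINE-1 subclasses held 13 peaks (2.93%) against 8.93%, and peaks with no annotated repeat numbered 8 (1.81%) against 11.3%. The intervals cover counting error only, and peaks are not replicates, since neighbouring peaks often lie in 1 element or 1 called region.

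The list as a whole includes stretches crowded with peaks, and none of the receptor peaks lay in these. Windows of 1 Mb with at least 50 peaks held 6328 peaks of the list (19.3%) and 0 of the 443, for which a count of 0 allows up to 3 of 443 (0.677%; Wilson upper limit 0.860%). Among the 26403 peaks outside such windows the LINE-1 share was 89.1% (88.7 to 89.5), nearer to that of the receptor peaks. There L1_Rn held 44.7%, L1_Rat1 28.3% and RNHAL1 9.45%, and 4.70% had no annotated repeat. Against these peaks the L1_Rat1 share of the receptor peaks, 25.3%, was lower, and their RNHAL1 share, 9.71%, was close. The 765 peaks nearest cadherin and protocadherin genes, another large family of cell surface proteins, had a LINE-1 share of 96.5% (94.9 to 97.6). Of the cadherin and protocadherin peaks, 62.5% were in L1_Rn, 25.1% in L1_Rat1 and 6.41% in RNHAL1, and 0.523% had no annotated repeat. All these shares are descriptions, and the differences between them were not tested.

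**Figure D2:**
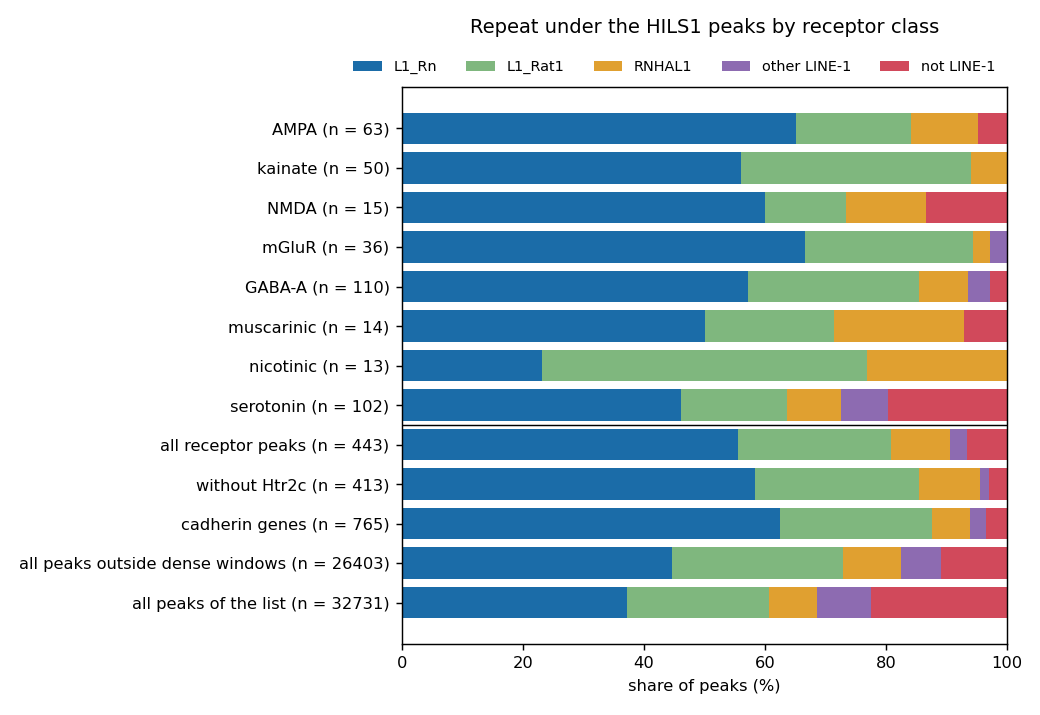
Share of peaks (x axis, percent) by annotated repeat for 8 of the 9 receptor classes, with the number of peaks, and below the line for the receptor peaks together, cadherin genes and the whole list (y axis). LINE-1 subclasses fill all of the bar for the kainate, metabotropic glutamate and nicotinic classes, and 80.4% of the bar for serotonin receptors.

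The AMPA receptor genes Gria1 to Gria4, whose products carry most fast excitatory transmission, all had peaks, 63 in total, with a LINE-1 share of 95.2% and a median fold enrichment of 29.6. Fold enrichment here is the linear ratio of reads in a called region over the background that the peak caller expected, as given by the authors. Its median over the 443 peaks was 25.9 (range 7.41 to 47.2) against 25 over all peaks, which reached 205. The median was 26.9 both for peaks outside dense windows and for cadherin and protocadherin peaks. On the log2 scale the medians of the receptor peaks and of all peaks were 4.70 (95% order-statistic interval 4.64 to 4.75) and 4.64. The values in brackets after the median fold of a gene are the folds of its lowest and highest peak.

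Gria3, on chromosome X, had 42 peaks from 30 called regions, of which 38 were intergenic upstream of the gene, 1 was in intron 5 of 15 and 3 lay downstream. They ran from 1229 kb before the TSS to 334 kb after it, and 41 were in LINE-1. The median fold enrichment was 25.9 (12.04 to 47.2), and the highest value belonged to a region 531 kb upstream that was split into a pair of L1_Rn segments. Another called region of Gria3 was split into 6 segments over 5.67 kb, the largest number among these genes. Gria1 had 10 peaks from 4 regions, all upstream between 452 and 230 kb, with a median fold of 34.3. Gria2, whose subunit sets the calcium permeability of AMPA receptors, had 5 peaks that were all segments of 1 called region in L1_Rat1, 10.3 to 15.1 kb upstream, with a fold of 29.6. Another 14 peaks of the list carried the name of Mir2985, the microRNA gene inside Gria2, and 1 of these was in a Gria2 intron. In Gria4, 5 of 6 peaks were in intron 3 of 16, among them a peak with no annotated repeat and a fold of 32.4.

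The kainate receptor genes Grik1 and Grik2 had 50 peaks, all in LINE-1, while Grik3, Grik4 and Grik5 had none. Kainate receptors modulate transmission on both sides of the synapse. The 33 peaks of Grik2 stretched over chromosome 20 from 1875 kb downstream of the TSS to 315 kb upstream, 21 of them past the gene, 5 in its introns and 7 upstream. Their fold enrichment had a median of 29.6 (range 16.7 to 42.6), and the highest value was a RNHAL1 peak 1308 kb downstream. Grik1 had 17 peaks with a median fold of 25.9 (13.0 to 33.3). Its 8 intronic peaks, in introns 1, 7 and 14 of 15, were all in L1_Rat1, whereas its 9 upstream peaks were in L1_Rn, L1_Rat1 and RNHAL1.

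Grid1, which encodes a receptor of the delta family that binds cerebellins, had 2 peaks from 1 region with a fold of 20.4, both in an intron of Chat, the gene for choline acetyltransferase.

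NMDA receptors are calcium-permeable channels that open when glutamate coincides with depolarisation. Of their 7 genes, Grin3a had 13 peaks and Grin2b had 2, and Grin1, Grin2a, Grin2c, Grin2d and Grin3b had none. Grin3a encodes a subunit that lowers calcium permeability. All 13 of its peaks lay upstream, from 1394 to 141 kb, with a median fold of 25.9 (9.26 to 32.4). The lowest fold, 9.26, was at a peak in the endogenous retrovirus element RNNICER2-int, and another peak of Grin3a, with a fold of 12.04, had no annotated repeat.

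Metabotropic glutamate receptor genes had 36 peaks, of which 18 were inside the receptor gene, 18 were upstream and none was beyond the end of the gene. All 36 were in LINE-1 and the median fold was 28.2. Grm7, which encodes a presynaptic receptor that reduces transmitter release, had 16 peaks with a median fold of 28.2 (17.6 to 38.9), of which 4 were in intron 1, 1 in intron 2, 4 in intron 7 and 1 in intron 8 of 9. The 4 peaks of intron 7 were segments of a single region of 6.24 kb in L1_Rn with a fold of 38.9, while the intron 1 peaks, all in L1_Rat1, had folds of 17.6 to 24.1. Grm3 had 15 peaks with a median fold of 28.7, and its 3 segments in intron 1 of 5 shared the highest fold of the gene, 41.7. All 4 peaks of Grm5 were intronic, with folds of 20.4 to 39.8. Grm2, Grm4 and Grm6 had none.

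**Figure D3:**
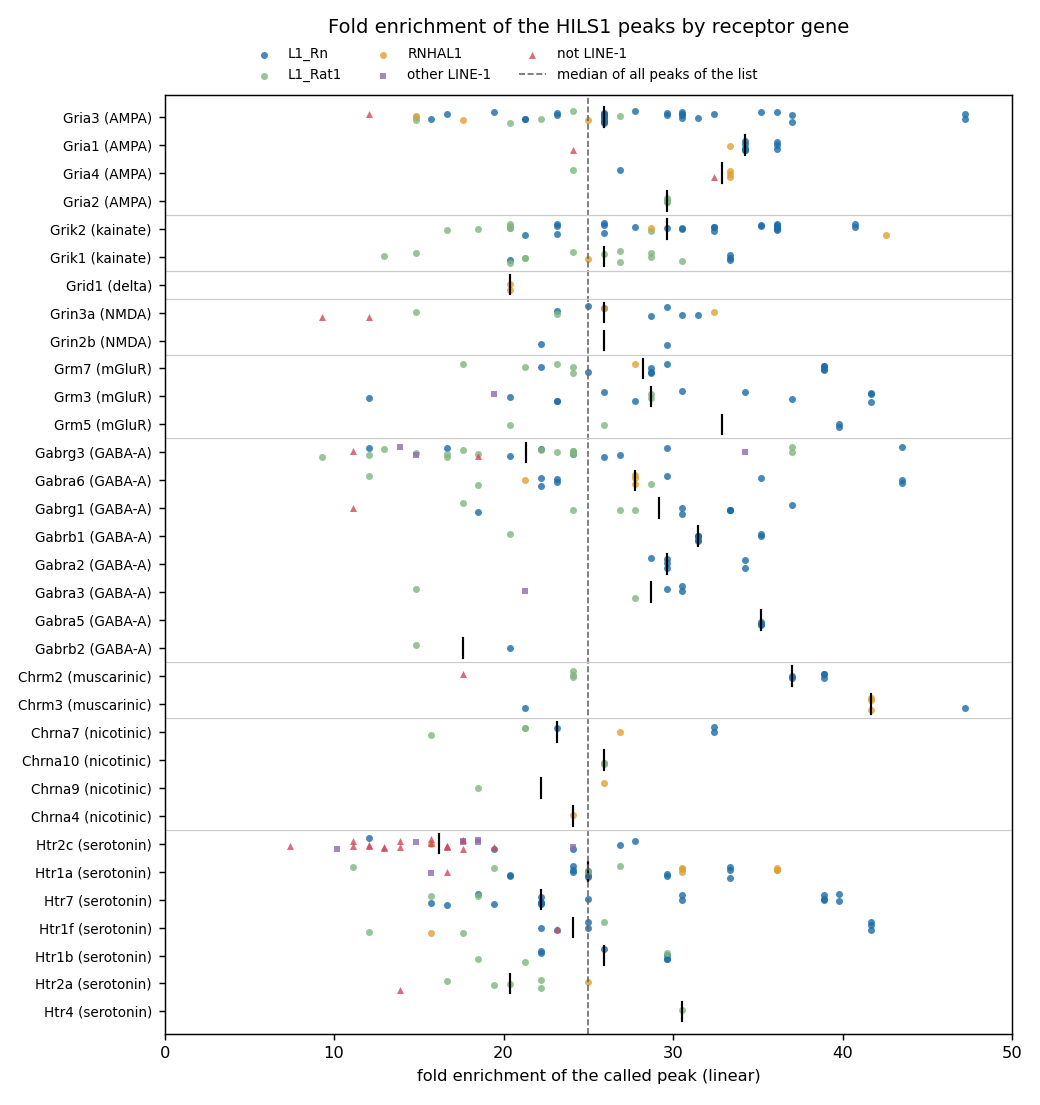
Fold enrichment of each HILS1 peak (x axis, linear) by receptor gene (y axis, 33 genes grouped by class), with points coloured by repeat, a black bar at each gene's median and a dashed line at the median of all peaks, 25. Most points fall between 10 and 45, and the triangles that mark peaks outside LINE-1 gather at Htr2c, where 17 of the 29 such peaks over all 38 genes lay.

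GABA-A receptors are the main inhibitory channels of the brain, and their subunit genes lie in clusters. Peaks were found at 11 of the 12 alpha, beta and gamma genes, with none at Gabra4, and 107 of the 110 were in LINE-1 (97.3%) with a median fold of 27.8. The cluster Gabrg1, Gabra2, Gabra4 and Gabrb1 on chromosome 14 had 26 peaks with a median fold of 31.0. They spanned 1.66 Mb between the outermost of these peaks. A further 5 peaks in introns of Gabrb1 were nearest the TSS of Commd8, a gene outside the cluster.

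The single GABA-A receptor genes differed in number and in fold. Gabrg3 had 30 peaks from 27 regions, 25 of them beyond the gene, out to 2691 kb from the TSS, the largest distance among the 443. Its most frequent subclass was L1_Rat1, with 16 peaks against 9 in L1_Rn, and its median fold was 21.3 (9.26 to 43.5). Gabra6, a subunit largely restricted to cerebellar granule cells, had 15 peaks, all downstream by 22.4 to 235 kb, with a median fold of 27.8 (12.04 to 43.5). Gabrb1 had 8 peaks, of which 5 were segments of 1 region in L1_Rn, 10.5 to 15 kb upstream, with a fold of 31.5. Further genes were Gabrg1 with 12 peaks (median fold 29.2), Gabra2 with 6 (29.6), Gabra3 with 6 (28.7), Gabra5 with 3 segments of 1 region (35.2) and Gabrb2 with 2 (14.8 and 20.4). Gabra3 is placed on chromosome 1 in the list, which uses the rn5 assembly, and on X in the newer GRCr8 assembly, the single gene of the 38 whose chromosome differed.

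Acetylcholine receptor genes had few peaks. The muscarinic genes Chrm2 and Chrm3 had 14, from 8 called regions, with the highest class median of fold, 38.0. Chrm1, Chrm4 and Chrm5 had none. Chrm2, whose receptor slows the heart, had 9 peaks from 5 regions, all 343 to 184 kb upstream, with a median fold of 37.0 (17.6 to 38.9), the lowest being in the repeat RatSatRep2. Chrm3, whose receptor drives gland secretion and smooth muscle contraction, had 5 peaks from 3 regions. Their median of 41.7 was the fold shared by segments of a single region. A Chrm3 peak in intron 2, 157 kb from the TSS, had a fold of 47.2, equal to the highest of Gria3, and 97.2% of all peaks in the list were lower. It lies in rn5 on chromosome 17 from 66059330 to 66061040, a stretch of 1710 bp in L1_Rn.

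Among the nicotinic alpha genes, Chrna7, Chrna10, Chrna9 and Chrna4 had 13 peaks, all in LINE-1, and Chrna1, Chrna2, Chrna3, Chrna5 and Chrna6 had none. L1_Rat1 held more of them (7) than L1_Rn (3), whereas L1_Rn held more in the other 7 classes of the plot of repeats. Chrna7, which forms channels from a single kind of subunit, had 7 peaks between 215 kb upstream and 402 kb downstream with a median fold of 23.2 (15.7 to 32.4). The 3 peaks of Chrna10, which with Chrna9 forms the receptor of cochlear hair cells, were segments of 1 region in an intron of Nup98, a nuclear pore gene, with a fold of 25.9. Chrna4 had 1 peak, 9.68 kb upstream, in RNHAL1 with a fold of 24.1.

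Serotonin receptor genes had 102 peaks at 7 of 14 genes and the lowest LINE-1 share, 80.4%, and the lowest median fold, 22.2, of the 9 classes. Htr2c, on chromosome X, accounted for 30 of them and for 17 of the 20 serotonin peaks outside LINE-1. Htr2c encodes a receptor that couples to phospholipase C and is known for its role in appetite. All 30 peaks lay upstream, between 691 and 157 kb, with a median fold of 16.2 (7.41 to 27.8), and 13 were in LINE-1. Of these peaks, 24 fell in a stretch of 185 kb (rn5 X from 117534365 to 117719417) whose limits were set after the values were seen. In that stretch 7 peaks were in LINE-1, none of them in L1_Rn, L1_Rat1 or RNHAL1, and the other 17 were in RatSatRep1 satellite (6), no repeat (5), RatSatRep2 (2), RNERVK9-int (2), B4 (1) and ID_Rn2 (1). Their median fold was 15.7 (7.41 to 24.1), and the 6 Htr2c peaks outside the stretch were all in LINE-1 with a median of 21.8 (12.04 to 27.8). The 1 Mb window around the stretch held 38 peaks, under the 50 that marked a dense window. Without Htr2c the LINE-1 share of the receptor peaks was 97.1% (401 of 413, 94.99 to 98.3).

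At the other serotonin receptor genes 3 peaks were outside LINE-1, 1 each at Htr1a, Htr1f and Htr2a. Htr1a, an inhibitory receptor and an autoreceptor of serotonin neurons, had 25 peaks from 17 regions with a median fold of 25 (11.1 to 36.1), 24 of them in LINE-1, 5 upstream and 20 downstream out to 863 kb. Htr7, which raises cyclic AMP, had 18 peaks, all in LINE-1, with 3 segments in intron 1 of 2 and 15 peaks beyond the gene, a median fold of 22.2 (15.7 to 39.8), and the longest of the 443 peaks, 3640 bp. Htr1f had 12 peaks with a median fold of 24.1, Htr1b 9 (25.9), and Htr4 1 in intron 1 of 6 with a fold of 30.6. Htr2a, the main target of classical hallucinogens, had 7 peaks, all upstream, of which 5 were in L1_Rat1, with a median fold of 20.4 (13.9 to 25). Htr1d, Htr2b, Htr3a, Htr3b, Htr5a, Htr5b and Htr6 had none.

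Grouped by mechanism, the 291 peaks nearest channel subunits had a LINE-1 share of 97.3% and a median fold of 26.9, and the 152 peaks nearest G protein-coupled receptors had 86.2% and 24.1. Without Htr2c the latter share was 96.7% of 122 peaks (91.9 to 98.7) and the median fold 25, so the gap in LINE-1 share rested on that gene.

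HILS1 peaks outside LINE-1 were few and, away from Htr2c, scattered. There were 29 (6.55%, 4.60 to 9.24), with a median log2 fold of 3.80 against 4.14 for all peaks of the list outside LINE-1. The 12 that were not at Htr2c belonged to 10 genes, and 6 of them were in RatSatRep2, at Gria1 (fold 24.1), Gria3 (12.04), Gabrg3 (11.1), Chrm2 (17.6), Htr1a (16.7) and Htr1f (23.2). The remaining 6 were in retroviral elements or in no repeat. At 27 of the 38 genes every peak was in LINE-1. Among the LINE-1 peaks, the median log2 fold was 4.89 (4.84 to 4.93) for L1_Rn, 4.47 (4.35 to 4.59) for L1_Rat1 and 4.93 (4.70 to 5.02) for RNHAL1, beside 4.93, 4.59 and 4.75 for the same subclasses over all peaks. L1_Rat1 peaks thus had the lowest median of the 3 subclasses at the receptor genes and over the list.

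The median absolute distance, measured from the peak's centre, was 327 kb (286 to 347) against 199 kb (195 to 203) over all peaks, 166 kb over peaks outside dense windows and 863 kb for cadherin genes. For the 102 peaks nearest other neurotransmitter receptor genes, such as those for glycine and adrenaline, the median was 117 kb (89.8 to 131), below that of the list. Peaks more than 1 Mb from the TSS numbered 56 (12.6%, 9.86 to 16.1) against 10.7% of the list. Within 100 kb there were 23.0% of the receptor peaks against 32.6% of the list and 49.0% of the other receptor genes' peaks, and within 10 kb there were 7 (1.58%, 0.767 to 3.23) against 3.85% of the list. Upstream and downstream were nearly balanced, with 207 peaks downstream (46.7%, 42.1 to 51.4) against 48.0%.

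The 7 nearest peaks were all upstream of their gene. The closest was 3.93 kb before the TSS of Htr2a (rn5 chromosome 15 from 60384297 to 60384958, L1_Rat1, fold 19.4). It was followed by a pair at Htr1a, 5.30 and 6.18 kb upstream in L1_Rn with a fold of 24.1. The peak of Chrna4, 9.68 kb upstream, was the farthest of the 7. Out to 15 kb there were 18 peaks from 10 called regions, again all upstream, whereas 58.0% of the 2035 peaks of the list within 15 kb were upstream. Grm8, left out by the rule, had 2 peaks, both downstream of its TSS, at a median distance of 9.90 kb. No receptor peak was annotated to an exon, an untranslated region, a promoter or a transcription end site, categories that held 65 peaks of the whole list (0.199%), so a count of 0 among 443 is near the share of the list.

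**Figure D4:**
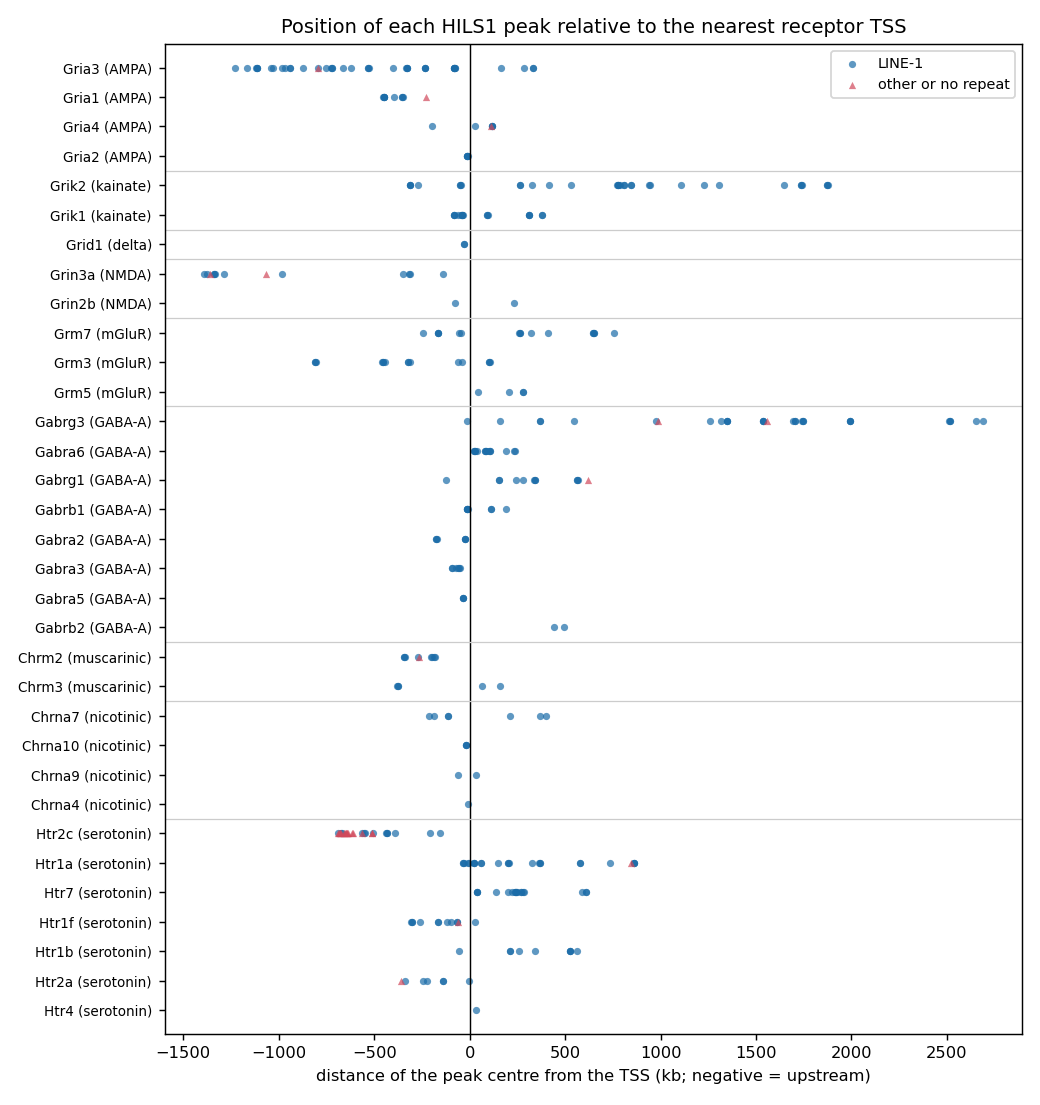
Distance of each HILS1 peak from its nearest TSS (x axis, kb, negative upstream) by receptor gene (y axis, 33 genes grouped by class), with circles for LINE-1 and triangles for other or no repeat. Gabrg3 reaches 2691 kb downstream and Grin3a 1394 kb upstream, and the triangles of Htr2c lie together 688 to 512 kb upstream.

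Introns held a minority of the peaks. Intronic peaks numbered 67 (15.1%, 12.1 to 18.8) against 13.9% (13.5 to 14.3) of all peaks, and 62 of them (14.0%, 11.1 to 17.5) were inside the receptor gene whose TSS was nearest, against 10.03% over the list. The other 5 were the peaks of Chrna10 in Nup98 and of Grid1 in Chat. Among the peaks of the list outside dense windows, 16.3% were intronic and 11.8% were inside the nearest gene. For cadherin and protocadherin peaks these shares were 6.54% and 6.41%. Intergenic peaks lay upstream in 231 cases (52.1%) and downstream in 145 (32.7%). Peaks inside the own gene had a median log2 fold of 4.59 (4.47 to 4.75). It was 4.70 both for intergenic upstream (4.64 to 4.80) and for intergenic downstream peaks (4.59 to 4.84), and these intervals overlap. Without Htr2c the upstream median was 4.80 (4.70 to 4.89). Over the whole list the order was the other way, with 4.75 for intronic and 4.64 for intergenic peaks. The sets of the list are wider, since they take in introns of any gene and peaks in dense windows. These differences were not tested. The LINE-1 share was 98.4% inside the gene, 97.2% downstream and 89.6% upstream, and the upstream share was 96.5% without Htr2c. L1_Rat1 held 26 of the 62 peaks inside receptor genes (41.9%, 30.5 to 54.3) and 86 of the other 381 (22.6%, 18.7 to 27.0), beside 27.4% of all intronic and 22.9% of all intergenic peaks. This difference was not tested, and 8 of the 26 were in Grik1.

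When peaks were counted by the gene they lay in, whatever the nearest TSS, the receptor genes took on further peaks. Their introns then held 110 peaks from 83 regions in 19 genes, of which 62 were nearest the own TSS, 22 nearest a microRNA and 26 nearest another gene. Thus 48 of 110 (43.6%, 34.7 to 53.0) carried another name, beside 28.5% (27.2 to 29.9) of the 4520 intronic peaks of the list with a named host gene. Their LINE-1 share was 99.1% (109 of 110, 95.03 to 99.8), their median fold 25 (11.1 to 50.0), and L1_Rat1 held 43 of them (39.1%, 30.5 to 48.4). The first intron held 25 peaks, the first 3 introns 58 and the last intron 2. The same counts were not made over the list, and intron lengths were not taken into account. A preference for early introns therefore cannot be read from them.

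Gabra3 and Grid1 had 10 peaks each in their introns, none of them under their own names. The Gabra3 peaks, under Mir105, were in introns 1, 2, 3 and 6 of 9 with folds of 16.7 to 32.4. The Htr2c introns held 7 peaks, in introns 2 and 4 of 5, under Mir1298 and Mir1912. In contrast to the 30 peaks upstream of Htr2c, all 7 were in LINE-1, and their folds were 15.7 to 50.0 with a median of 38.9 against 16.2 upstream, a difference with no test. Grm8, which was left out of the families chosen here, had 27 intronic peaks, 25 of them under Mir592.

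**Figure D5:**
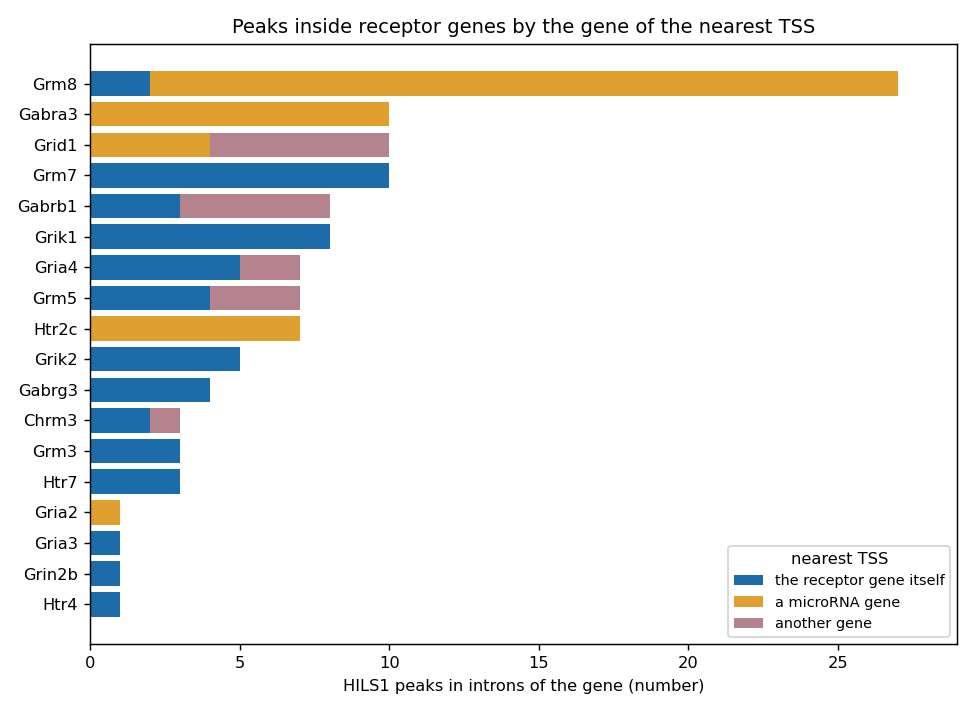
Number of HILS1 peaks inside receptor genes (y axis: 18 genes; x axis: peaks), split by whether the nearest TSS was that of the gene itself, of a microRNA or of another gene. All 10 peaks in Gabra3 and all 7 in Htr2c were nearest a microRNA, all 10 in Grm7 were nearest Grm7, and Grm8, shown for reference, had 27.

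Other properties of the called peaks were near those of the list. The median length was 750 bp (717 to 795; range 104 to 3640) against 776 bp. The authors' false discovery rate had a median of 7.61% (range 3.45 to 24.5) against 7.64%, and 393 peaks (88.7%) were at 10% or less against 84.7%. By chromosome, 87 receptor peaks were on chromosome 1, 80 on 4 and 72 on X (19.6%, 18.1% and 16.3%, beside 12.5%, 6.13% and 6.97% of all peaks). Those on X belonged to Gria3 and Htr2c.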

How the data were processed

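Per the study's methods and the submitters' processing notes, reads were trimmed (Trim Galore, FastQC), aligned uniquely to rat assembly rn5 with Bowtie2 and cleared of PCR duplicates, peaks were called with MACS for each of 2 replicates against 1 input, shared peaks of 100 to 4000 bp were kept with bedtools, and HOMER gave the nearest TSS, region and repeat. Which replicate the fold came from was not given in the sources used here. The authors deposited 1 table with, for each peak, a fold enrichment (a linear ratio), a score (a negative, rescaled log10 of the MACS p-value) and a false discovery rate in percent. Discarding reads with several alignments can lower the signal over near-identical repeat copies. Read totals are unknown.

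Here the deposited values were read with Python 3.11.15, pandas 2.3.3, numpy 2.4.6 and scipy 1.17.1 and drawn with matplotlib 3.10.9, with scripts tested on simulated data. Pieces of one called region share its fold, score and rate. Shares have 95% Wilson intervals and medians order-statistic intervals, which cover counting error only. There was no test because the table has no value per replicate. Intronic transcripts were matched to genes through RefSeq accessions (GRCr8), and 28 of 4611 had no name. Coordinates are those of the table, and whether its starts count from 0 or 1 is unclear. No rn5 sequence was used. Some genes of the rule are counted in the totals but not reported here one by one.

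The members, gene lists and rules were chosen with earlier results of these data known. Genes were described if they were among the 10 with most peaks, first in their class, within 10 kb of a peak, at the highest or lowest folds, or with several peaks outside LINE-1, and others were given by count. Alternatives were the longest piece of each region, minimums of score (100), fold (16) and length (500 bp), a false discovery rate of at most 10%, neighbours within 6000 bp counted once, own-gene introns only, adding Grm8, leaving out Gria3, and, for single results, LINE-1 peaks or repeat-annotated peaks only.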

Additional observations from a re-analysis of the deposited data

How the results depend on the processing

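Of 90 recomputed values of 8 results, 74 stayed within the interval, or within 1.5 times for the number of peaks, and 16 did not. The number of peaks was 235 with neighbours within 6000 bp counted once and 62 with own-gene introns only. The LINE-1 share became 96.9% at a fold of at least 16, 95.4% with the 10% false discovery limit, 98.4% in own-gene introns and 97.1% without Htr2c, an alternative chosen after seeing the data. In own-gene introns the shares that were intronic, inside the own gene and downstream were 100% by construction, and the median distance was 205 kb. The median log2 fold was 4.59 with the longest piece of each region, 4.80 at a fold of at least 16, 4.80 with the 10% false discovery limit and 4.59 in own-gene introns. The median length was 796 bp with the 10% false discovery limit and 874 bp with neighbours counted once. All names found were receptor genes, so leaving out others changed nothing. No paired analysis was possible because the table holds no value for either replicate, and for the same reason neither replicate could be left out. Nearest-TSS names depend on the annotation used, as the microRNA genes show. Read depth, which sets the lowest enrichment that could be called, is unknown.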

Other observations

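A further 48 neurotransmitter receptor genes, not among the genes chosen above, included 20 with peaks, 102 in all, of which 86 were in LINE-1 (84.3%, 76.0 to 90.1). All 5 glycine receptor genes, which encode inhibitory channels of spinal cord and brainstem, had peaks, 47 in total. Adrenergic receptor genes had 28 peaks at 5 of 9 genes, led by Adra1d with 13, and dopamine receptor genes had 8, at Drd2 (5) and Drd1 (3). Histamine receptor genes had 6 peaks. The GABA-B genes (2) and the P2X genes for ATP-gated channels (7) had 0. Gabre and Gabrq, which like Gabra3 are listed on chromosome 1, had 2 and 4 peaks, all in LINE-1. Chrnb3, a nicotinic beta subunit gene, had 1 peak, 1.52 kb upstream of its TSS, with a fold of 9.26.

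Glra3, a glycine receptor alpha subunit, held 14 of the 16 peaks outside LINE-1 in this group. Of its 24 peaks, 13 from 7 called regions were in intron 5 of 8, within 34.5 kb (rn5 chromosome 16 from 37552125 to 37586614), and 0 of these were in LINE-1. The annotated repeat was B3A, a short interspersed element, at 11 of the 13, out of 36 peaks with that repeat in the whole list. Their median fold was 43.5 (21.3 to 67.6), and the highest fold of the 443 peaks described above was 47.2. The 10 peaks of Glra3 in LINE-1 were intergenic and had folds of 19.4 to 38.0. The stretch was singled out after its values were seen.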
